A study of Mus musculus with 4 samples.

Results

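The 10 genes H19, Igf2, Dlk1, Meg3, Grb10, Mest, Peg3, Ndn, Igf2r and Gnas are imprinted genes that have been linked to the quiescence of hematopoietic stem cells. They were examined for chromatin accessibility in single long-term hematopoietic stem cells (LT-HSCs), which renew the blood throughout life. The locus of each gene was taken as the gene body plus the 5000 bp upstream of it, and every accessibility peak overlapping this window was assigned to the gene. The 10 loci held 50 of the 93513 peaks in the table, 18 of them within 1000 bp of a transcript start of the gene, 28 elsewhere in the gene body and 4 further upstream.

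Imprinted genes are expressed from either the maternal or the paternal copy, because DNA methylation placed at control regions in the egg or sperm marks the copies differently. The zinc finger protein ZFP57 holds this methylation in place after fertilization, and the insulator protein CTCF binds the unmethylated copy of some control regions. In blood, several imprinted genes are known for high expression in the most quiescent stem cells, and the H19-Igf2 and Dlk1-Meg3 domains are known to affect stem cell maintenance. The counts carry no information on the parental copy, so a locus open on 1 copy and a locus open on both cannot be told apart.

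Single-cell ATAC-seq, in which the Tn5 transposase inserts adapters into open chromatin, had been applied to LT-HSCs of the C57BL/6JRj strain. The 4 samples formed 4 groups of 1 sample each: CLCA3A1high and CLCA3A1low LT-HSCs from mice of 22 to 28 months, a young group of 3 to 4 months and an old group of 22 to 28 months, the last 2 labeled replicate 2. Each sample pooled 2500 cells from each of 4 mice, 10000 cells in all, so the mice of a pool cannot be separated. The strain is given for all samples, and no transgene, deletion or treatment is given for any. The table analyzed is the one that the labels tie to the CLCA3A1high and CLCA3A1low samples, which were sorted with an antibody to CLCA3A1, a surface protein.

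Its cells carried 1 of 2 barcode suffixes, and no label ties a suffix to a sample. The suffixes are therefore called barcode set 1 and barcode set 2, a ratio between them has no group direction, and without replicates no test was possible. Set 1 held 818 cells and 13050952 counts, with a median of 13358.5 counts per cell, and set 2 held 636 cells and 9820094 counts, with a median of 12755. No barcode sequence was shared (0 in common). Levels are given in CPM, the counts of a locus or peak scaled to the total counts of the set, with an exact 95% Poisson interval. A difference is the log2 ratio of CPM in set 1 over set 2, with an exact 95% binomial interval. These intervals cover counting error only and are too narrow, since 88.7% of the nonzero values were even, as a sequenced fragment mostly brings a pair of cut sites.

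The marker genes were used to check the labeled cell type. Of 10 LT-HSC markers, 9 had counts, with a summed level of 879 CPM in set 1 and 745 CPM in set 2, and Ly6a had no peak. Of the genes of other blood cells, Cd3e, Cd3g, Cd8a, Ms4a1, Ly6g, Camp, Hba-a1 and Alas2 had no peak either. Others of these genes were open, such as Pax5 at 65.3 and 66.1 CPM, Csf1r at 53.8 and 63.3 CPM and Cd3d at 29.7 and 39.3 CPM. These were above the LT-HSC marker Procr, at 11.9 and 6.92 CPM. Where markers had peaks, the summed levels in set 1 and set 2 were 112 and 121 CPM for 6 B cell genes, 63.1 and 69.1 CPM for 6 T cell genes, 88.0 and 72.3 CPM for 6 erythroid genes, 118 and 133 CPM for 8 neutrophil and monocyte genes, and 250 and 252 CPM for 8 stromal and endothelial genes. Sums depend on the number and length of the genes, and Mecom alone, with 52 peaks, was at 392 and 332 CPM. They compare the sets within a list, not the lists, and do not settle the cell type.

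Sequences of the control regions are shown for the loci on which the results turn, all from GRCm38 and all outside annotated exons. In the peak over the Peg3 start, a window of the minus strand at chr7:6729436-6729635 holds 2 of the 10 copies of a short word taken from the YY1 consensus (AAGATGGCG on either strand, in capitals). YY1 is a zinc finger factor, and clustered YY1 motifs in the first intron are a known feature of the Peg3 control region. A second window at chr7:6730027-6730226, also on the minus strand, holds 3 of the 8 copies of the ZFP57 word (TGCCGC on either strand).
Peg3, YY1 word: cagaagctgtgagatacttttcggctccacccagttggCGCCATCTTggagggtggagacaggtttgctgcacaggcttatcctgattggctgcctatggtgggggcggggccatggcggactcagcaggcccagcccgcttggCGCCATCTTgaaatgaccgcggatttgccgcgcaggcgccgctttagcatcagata
Peg3, ZFP57 word: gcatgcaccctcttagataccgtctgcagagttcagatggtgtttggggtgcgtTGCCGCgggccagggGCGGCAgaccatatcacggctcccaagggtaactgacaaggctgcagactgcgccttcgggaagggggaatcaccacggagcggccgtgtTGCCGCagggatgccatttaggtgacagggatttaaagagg

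The H19 control region lies upstream of the gene, where CTCF is known to bind the maternal copy. The upstream peaks chr7:142580100-142580951 and chr7:142581611-142582262 held 2 and 1 copies of a word from the CTCF consensus (CGNGGNGGC on either strand), and 1 window of each is shown on the minus strand, at chr7:142580211-142580410 and chr7:142581936-142582135. Both windows carry the word in the same spelling.
H19, first upstream peak: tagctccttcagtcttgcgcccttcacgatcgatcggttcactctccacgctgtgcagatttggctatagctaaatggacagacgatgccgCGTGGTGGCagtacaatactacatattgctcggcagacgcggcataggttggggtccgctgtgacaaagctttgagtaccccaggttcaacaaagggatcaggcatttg
H19, second upstream peak: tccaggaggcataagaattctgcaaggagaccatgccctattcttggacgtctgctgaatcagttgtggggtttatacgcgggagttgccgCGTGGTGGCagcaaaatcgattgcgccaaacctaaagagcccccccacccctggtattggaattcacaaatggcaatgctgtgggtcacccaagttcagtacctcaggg

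The other windows show the ZFP57 word in peaks over a start site. For Igf2r the window chr17:12742193-12742392 (minus strand) comes from the intronic peak at the start of the antisense RNA Airn, which silences the paternal Igf2r copy, and that peak held 8 copies. The Mest window chr6:30737548-30737747 (plus strand) comes from the peak over an internal Mest start, also with 8 copies.
Igf2r, Airn start: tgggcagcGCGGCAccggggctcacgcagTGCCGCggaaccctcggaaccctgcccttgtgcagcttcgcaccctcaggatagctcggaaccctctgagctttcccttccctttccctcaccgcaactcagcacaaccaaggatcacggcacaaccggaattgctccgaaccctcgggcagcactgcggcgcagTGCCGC
Mest: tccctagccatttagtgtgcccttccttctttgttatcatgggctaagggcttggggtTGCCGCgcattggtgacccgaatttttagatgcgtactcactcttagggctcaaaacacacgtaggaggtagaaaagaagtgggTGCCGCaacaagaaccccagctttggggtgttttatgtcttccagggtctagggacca

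The ZFP57 word was found in 31.9% of the 47 member peaks of at least 10 bases, against 16.6% of all 92159 such peaks. The CTCF word was found in 17.0% of the member peaks and 11.1% of all peaks, and the YY1 word in 2.13% and 1.18%. In windows around 32851 RefSeq transcription starts (GRCm38), the shares were 11.6%, 9.86% and 1.40%. These windows were shorter than the median peak, which was 708 bp wide for member peaks and 545 bp for all peaks. Their shares are therefore not on a like footing with those of the peaks. The ratio of observed to expected CpG was above 0.6 in 15 of the member peaks, or 31.9%, against 11.5% of all peaks, and its median was 0.37 against 0.24. Wide peaks hold more words, so counts of words were also set beside peaks of 0.8 to 1.2 times the same width. Of 2126 peaks as wide as the Peg3 peak, 5.64% held the YY1 word, and 1, the Peg3 peak itself, held 10 copies. As many ZFP57 words as in the Mest peak and the peak at the Airn start were found in 0.031% and 0.063% of peaks of like width, and 0.61% had as many as the Peg3 peak. A word is only a match of letters and does not show that the factor was bound.

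Of the 10 loci, 9 reached the minimum of 20 counts over both sets, and 2 of these, Peg3 and Ndn, differed by more than 1.5-fold, both with the higher level in set 1. The background was 8.78% of 27369 gene loci higher and 7.46% lower in set 1 by this fold, or 5.56% and 4.33% of 16988 protein-coding loci. The median log2 ratio of the 9 loci was 0.23, against 0.0073 over all gene loci. By the copy known to be expressed, the log2 ratios of the 5 paternally expressed genes ran from 0.00 to 1.59, and those of the 3 maternally expressed genes above the minimum from -0.10 to 0.23. The top of the first range was Peg3 alone. The split was not made for imprinted genes outside the 10, where the maternally expressed Zim1 was at 2.23. The interval excluded 0 at Peg3, Ndn, Igf2 and Grb10, each time with set 1 higher, and Igf2 and Grb10 were not past 1.5-fold. The share of all gene loci with an interval excluding 0 was not counted, so these loci have no background to stand beside.

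**Figure D1:**
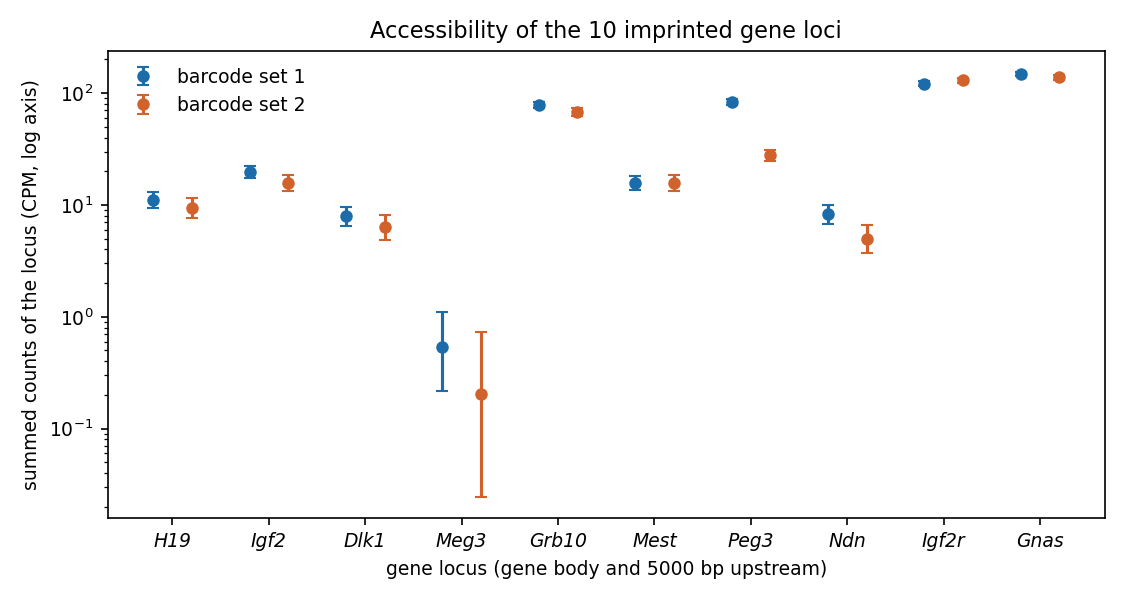
Summed accessibility of each of the 10 imprinted loci (CPM, log axis) in barcode set 1 and barcode set 2. Points are the level of each set and bars are exact 95% Poisson intervals. The levels compare the sets within a gene, not genes with each other, since the loci differ in length. The Peg3 points lie far apart, at 83.6 and 27.7 CPM, and Meg3 lies below the other loci in both sets.

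Peg3 encodes a zinc finger protein expressed from the paternal copy. Its locus held a single peak, chr7:6727265-6730705, which covers the transcript start and the first intron, with 5.06% of its bases in exons. The peak had 1091 counts in set 1 and 272 counts in set 2. The level was 83.6 CPM (78.7 to 88.7) in set 1 and 27.7 CPM (24.5 to 31.2) in set 2, a 3.02-fold difference (2.64 to 3.46) with a log2 ratio of 1.59 (1.40 to 1.79). Intervals of the sets were far from overlapping. Among 2778 peaks with at least as many counts, no other peak had as high a ratio. Among 6172 protein-coding loci with at least as many counts, 1 other locus, Cavin2, which encodes a caveola coat protein, was as high, with a log2 ratio of 1.76.

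The Peg3 difference was seen in the share of cells as well as in the counts. Every cell was thinned to 4899 counts to remove differences in depth, which left 749 cells of set 1 and 560 of set 2. At this depth 25.0% of set 1 cells (21.9 to 28.2) and 8.57% of set 2 cells (6.39 to 11.2) had a count in the peak, and cells with a count held 1.70 and 1.29 counts on average. At full depth the shares were 37.3% and 14.5%, and 14.5% of set 1 cells against 3.77% of set 2 cells had at least 4 counts. The 10 cells with most counts held 11.5% of the Peg3 counts in set 1 and 29.0% in set 2, and without these cells the log2 ratio was 1.91. This rise follows from the larger share taken from set 2 and says nothing on how firm the difference is. The ratio at Mest rose in the same way, from 0.00 to 0.18.

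The peak is shared with the locus of Usp29, a paternally expressed ubiquitin protease gene that starts next to Peg3 on the opposite strand, so the counts cannot be divided between them. The other 3 peaks of Usp29 together had a log2 ratio of 0.45 (-0.02 to 0.93). At Zim1, a maternally expressed zinc finger gene of the same domain, the peak chr7:6696298-6696789 lay 33.9 kb from the Peg3 start, and its level was 10.5 CPM in set 1 and 2.24 CPM in set 2, a log2 ratio of 2.23 (1.57 to 2.95). These were 2 of the 3 peaks within 200000 bp of the Peg3 locus, and the other, at 2.53 and 1.53 CPM, had an interval including 0. Over the 22 peaks within 500000 bp outside the Peg3 locus the summed log2 ratio was -0.05, and chromosome 7 took 6.99% of the counts in set 1 and 7.10% in set 2. Of the 9 LT-HSC markers with counts, 8 were higher in set 1, 7 of them with an interval excluding 0, and the median log2 ratio was 0.27. Past 1.5-fold, 3 were higher and 0 lower in set 1, against 8.78% and 7.46% of all gene loci. The share of all gene loci with an interval excluding 0 was not counted. Slamf1 and Procr stood at 0.88 and 0.78, and Fgd5 was lower in set 1 at -0.33 (-0.49 to -0.17). The part of these markers in the Peg3 result was not tested.

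**Figure D2:**
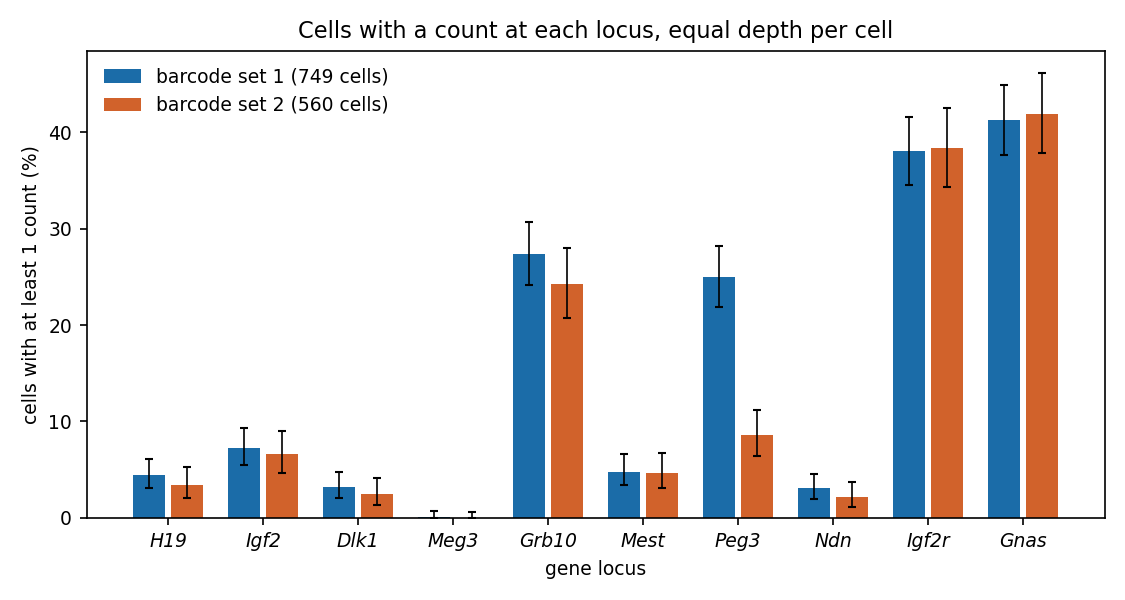
Share of cells with at least 1 count at each imprinted locus (%), with each cell thinned to 4899 counts, in 749 cells of barcode set 1 and 560 cells of set 2. Bars start at 0 and whiskers are exact 95% binomial intervals. Peg3 was open in 25.0% and 8.57% of cells, and at the other 9 loci the whiskers of the sets overlap.

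Ndn encodes necdin, a growth suppressor expressed from the paternal copy that is known to restrain cycling of stem cells. Its single peak, chr7:62348024-62349178, lies wholly within the exon of the GENCODE model of this gene. It begins 1455 bp after the nearest GENCODE start but covers the window around the RefSeq start. The peak is shared with the locus of Gm32061. It had 108 counts in set 1 and 49 in set 2, or 8.28 CPM (6.79 to 9.99) and 4.99 CPM (3.69 to 6.60), a log2 ratio of 0.73 (0.23 to 1.25). At equal depth 3.07% and 2.14% of cells had a count, with overlapping intervals. The ratio ranged from 0.40 to 1.15 over the alternatives. The 9 peaks within 500000 bp outside the Ndn locus had a summed log2 ratio of 0.41, so the neighborhood was also higher in set 1, and the part of this in the Ndn value was not tested.

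The growth factor Igf2 and the noncoding RNA H19 share a control region, with Igf2 expressed from the paternal and H19 from the maternal copy. The Igf2 level was 19.8 CPM (17.4 to 22.3) in set 1 and 15.8 CPM (13.4 to 18.5) in set 2, a log2 ratio of 0.32 (0.03 to 0.62), which fell to 0.011 in thinned cells. The Igf2 peak with most counts, chr7:142658301-142660956, was at 16.0 and 11.2 CPM. The intronic Igf2 peak chr7:142663982-142664818 was at 3.06 and 4.07 CPM with an interval including 0, and the start peak chr7:142657010-142657538 had 9 and 5 counts. H19 was at 11.1 CPM (9.38 to 13.1) and 9.47 CPM (7.64 to 11.6), a log2 ratio of 0.23 with an interval from -0.16 to 0.62. The upstream H19 peaks shown above were at 5.67 and 4.98 CPM in set 1 and at 4.68 and 4.38 CPM in set 2, and their intervals included 0. The H19 start peak, chr7:142578249-142578418, had 6 and 4 counts. Between the 2 loci, 3 further peaks gave a log2 ratio of 0.35 (-0.07 to 0.78). The nearest to H19, chr7:142588488-142589113, was at 5.13 and 2.34 CPM, a log2 ratio of 1.13 (0.43 to 1.88).

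Dlk1, a Notch-related ligand expressed from the paternal copy, was at 7.97 CPM (6.51 to 9.66) in set 1 and 6.31 CPM (4.84 to 8.09) in set 2, a log2 ratio of 0.34 whose interval, -0.13 to 0.81, included 0. Its peaks moved in opposite directions. The first start peak, chr12:109453064-109453464, was at 3.83 and 1.22 CPM, a log2 ratio of 1.65 (0.72 to 2.69). The exonic peak chr12:109459577-109459784, also a start peak since it lies 59 bp from a later transcript start, was at 0.77 and 2.04 CPM. Its log2 ratio was -1.41 (-2.67 to -0.25). The upstream peak chr12:109450114-109450649 was at 3.37 and 3.05 CPM with an interval including 0. The exonic peak had 30 counts, from 7 cells of set 1 and 12 cells of set 2. These were too few for a ratio without the 10 cells of each set with most counts. In thinned cells the share with a count in this peak was 0% in set 1 and 1.07% in set 2. Meg3, a maternally expressed noncoding RNA, had 2 peaks of 88 and 2 bases, the second without a count, and the first had 7 counts in set 1 and 2 in set 2, a ratio of 2.63 with a counting interval of 0.50 to 26.0. In thinned cells 1 cell of set 1 and 0 of 560 cells of set 2 had a Meg3 count, the latter allowing a share of up to 0.536% (3 counts of the total). A difference at Meg3 was not detectable at this depth. The 4 peaks between the Dlk1 and Meg3 loci were at 12.1 CPM in set 1 and 21.0 CPM in set 2 in sum, a log2 ratio of -0.79 (-1.10 to -0.49). This is the reverse of the first Dlk1 start peak and the same direction as the exonic one.

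Grb10, an adaptor that dampens insulin and IGF receptor signaling, is maternally expressed in most tissues. It was at 77.6 CPM (72.9 to 82.5) in set 1 and 67.9 CPM (62.9 to 73.3) in set 2, a log2 ratio of 0.19 (0.05 to 0.34), while the peaks within 500000 bp around it gave -0.28. Its first start peak, chr11:12035500-12038471, was at 25.9 and 16.3 CPM, a log2 ratio of 0.67 (0.39 to 0.95), and the CpG-rich peak over a later start, chr11:12025386-12026693, was at 12.6 and 12.7 CPM, a log2 ratio of -0.02. An intronic peak, chr11:11991421-11991779, was at 2.53 and 0.61 CPM, a log2 ratio of 2.05 (0.78 to 3.60) from 39 counts. The intronic peak chr11:11948171-11949460, among the highest of the locus, was at 16.2 and 18.2 CPM with an interval including 0, and the start peak chr11:11937564-11937669 had 5 and 4 counts. Mest, a hydrolase-like gene expressed from the paternal copy, was at 15.7 CPM in each set (13.6 to 18.0 and 13.3 to 18.4), and the interval of its log2 ratio ran from -0.31 to 0.31. Its start peak chr6:30736671-30738202 was at 12.0 and 11.4 CPM and its intronic peak chr6:30735214-30735921 at 3.75 and 4.28 CPM, both with an interval including 0.

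Igf2r encodes the receptor that clears IGF2 and is expressed from the maternal copy. Over the whole locus the difference was within counting error, at 121 CPM (116 to 128) in set 1 and 130 CPM (123 to 137) in set 2, a log2 ratio of -0.10 (-0.20 to 0.01). Single peaks differed in opposite directions. The start peak chr17:12769201-12770111 was at 9.50 and 4.38 CPM, a log2 ratio of 1.12 (0.61 to 1.65), with a count in 4.27% and 1.61% of thinned cells. An intronic peak 14.7 kb downstream, chr17:12754437-12755521, went the other way, at 7.66 and 22.6 CPM, a log2 ratio of -1.56 (-1.92 to -1.21), with a count in 2.67% (1.64 to 4.09) and 7.14% (5.15 to 9.60) of thinned cells. Of 19034 peaks with at least as many counts, 56 had as low a ratio. The intronic peak at the Airn start, whose sequence is shown above, was at 19.2 and 16.8 CPM, a log2 ratio of 0.19 with an interval including 0. The peak with most counts, the intronic chr17:12745349-12746586, was at 21.8 and 17.2 CPM, a log2 ratio of 0.34 (0.06 to 0.63), and chr17:12713742-12714777 was at 19.8 and 19.4 CPM. Of the other Igf2r peaks, chr17:12722521-12723124 and chr17:12688645-12689829 were lower in set 1, with log2 ratios of -1.09 and -0.60, and chr17:12734230-12734921 was higher, at 1.11.

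**Figure D3:**
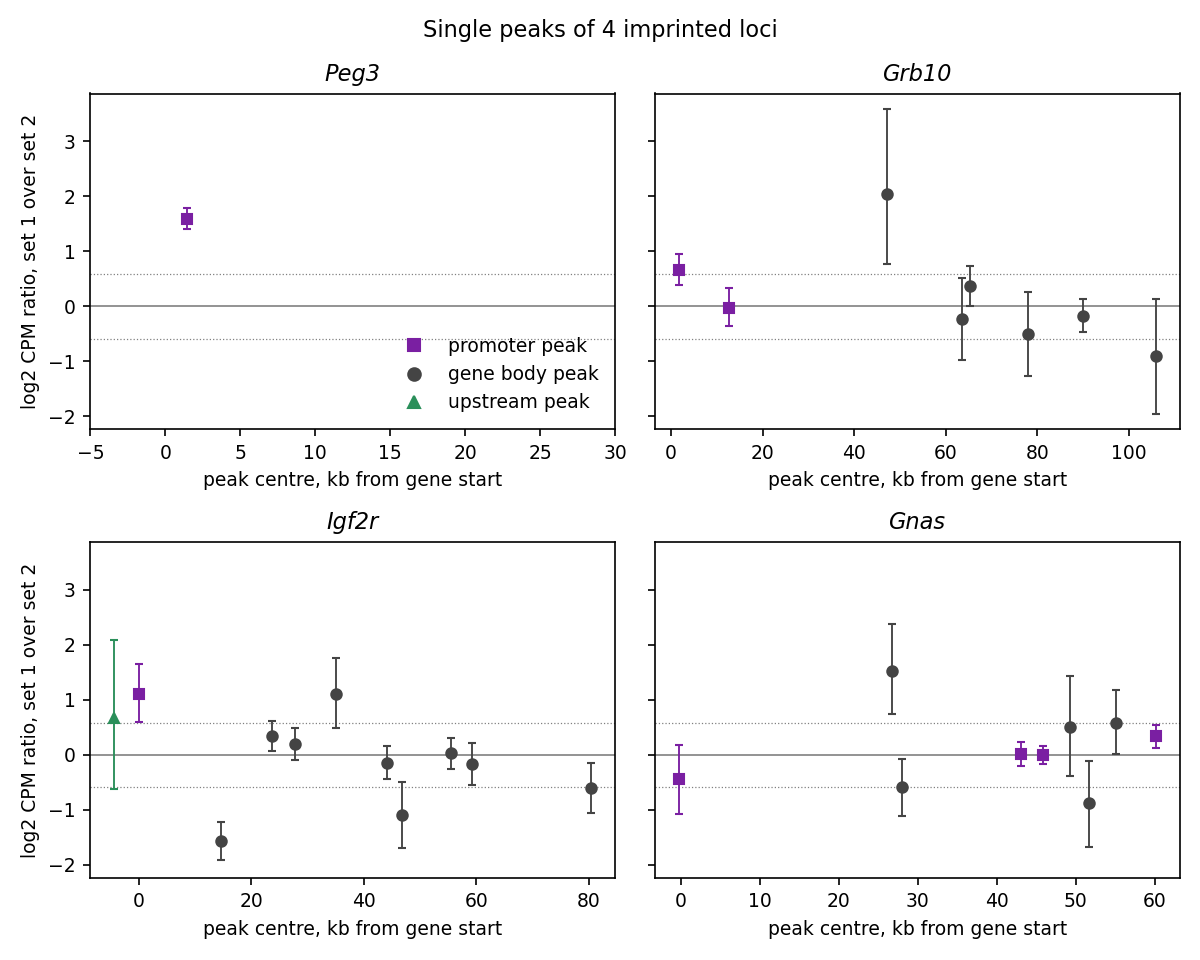
Log2 CPM ratio of set 1 over set 2 for single peaks with at least 20 counts at Peg3, Grb10, Igf2r and Gnas, by distance of the peak centre from the gene start (kb). Bars are exact 95% intervals, squares are start peaks, circles gene body peaks and triangles upstream peaks, and the dotted lines mark 1.5-fold. At Igf2r the start peak at 1.12 and the intronic peak at -1.56 lie on opposite sides of 0.

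Gnas encodes the stimulatory G protein alpha subunit and has several starts, some read from a single parental copy. The locus was at 148 CPM (141 to 155) in set 1 and 139 CPM (131 to 146) in set 2, a log2 ratio of 0.09 (-0.01 to 0.19). The start peak with most counts, chr2:174328776-174331550, was at 54.1 and 54.4 CPM, and the adjacent start peak chr2:174326610-174328208 at 31.1 and 30.7 CPM. At both of these starts the sets were within counting error of each other. The most upstream start peak, chr2:174283710-174284445, shared with the antisense RNA Nespas, was at 3.37 and 4.58 CPM with an interval including 0, and the start peak chr2:174297306-174297468 had 10 and 4 counts. The last start peak, chr2:174343833-174345046, was at 38.2 and 30.2 CPM, a log2 ratio of 0.34 (0.13 to 0.55). The intronic peaks chr2:174310876-174311308 and chr2:174338686-174339975 were higher in set 1, with log2 ratios of 1.52 and 0.59, and chr2:174335763-174336270 and chr2:174312088-174312600 were lower, with -0.88 and -0.59.

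Of the 50 member peaks, 39 had at least 20 counts. Of these, 10 were more than 1.5-fold higher and 7 more than 1.5-fold lower in set 1, against a background of 20.4% and 19.5% of 79625 peaks. With the further condition that the interval excluded 0 there were 9 and 6, against 15.9% and 16.3% of all peaks. The median log2 ratio was 0.068 over the 39 peaks and 0.024 over all peaks. The shares of member peaks past the fold were thus near those of peaks in general. All 15 peaks past 1.5-fold with an interval excluding 0 kept their sign with each peak counted only once in a cell and when cells were thinned. Of the 15, 12 stayed past 1.5-fold with the first change and 11 with the second.

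Levels of the 9 loci with at least 20 counts were ranked per kb of peak, over both sets together. Peg3 was at 17.3 CPM per kb (16.4 to 18.3), followed by Gnas at 15.0 (14.5 to 15.6), Igf2r at 10.8 (10.5 to 11.2) and Grb10 at 8.34 (7.95 to 8.75). Mest at 7.01, Dlk1 at 6.34, H19 at 6.22 and Ndn at 5.94 had overlapping intervals and could not be ordered, and Igf2 was lowest of the 9 at 4.49 (4.07 to 4.94). The first place of Peg3 rested on set 1, where it was at 24.3 CPM per kb (22.9 to 25.8) and Gnas at 15.4. In set 2 Peg3 was at 8.05 (7.12 to 9.07), below Gnas at 14.5 and Igf2r at 11.3 and overlapping Grb10 at 7.71. In thinned cells the share with a count was 41.3% and 42.0% at Gnas, 38.1% and 38.4% at Igf2r, and 27.4% and 24.3% at Grb10, for set 1 and set 2. It lay between 2.14% and 7.21% at H19, Igf2, Dlk1, Mest and Ndn. Of the 10 loci, a thinned cell had a count at 1.54 on average in set 1 and 1.33 in set 2, and 17.6% and 20.5% of cells had none.

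Of 56 other imprinted genes, 51 had at least 20 counts, and 10 of these were more than 1.5-fold higher and 1 lower in set 1, with a median log2 ratio of 0.19. The backgrounds for gene loci given above were 8.78% and 7.46%. The genes with at least 100 counts and the largest differences were Zim1 and Usp29, described above, and then Zdbf2, a paternally expressed zinc finger gene, at 6.90 and 4.07 CPM (log2 ratio 0.76), and Nnat, a neuronal membrane protein gene, at 6.67 and 4.28 CPM (0.64). The gene lower in set 1 was Mkrn3, named because it was the only 1 in this direction, with a log2 ratio of -0.80. Many of these genes lie in shared domains and share peaks, so they are not independent of each other or of the 10.

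**Figure D4:**
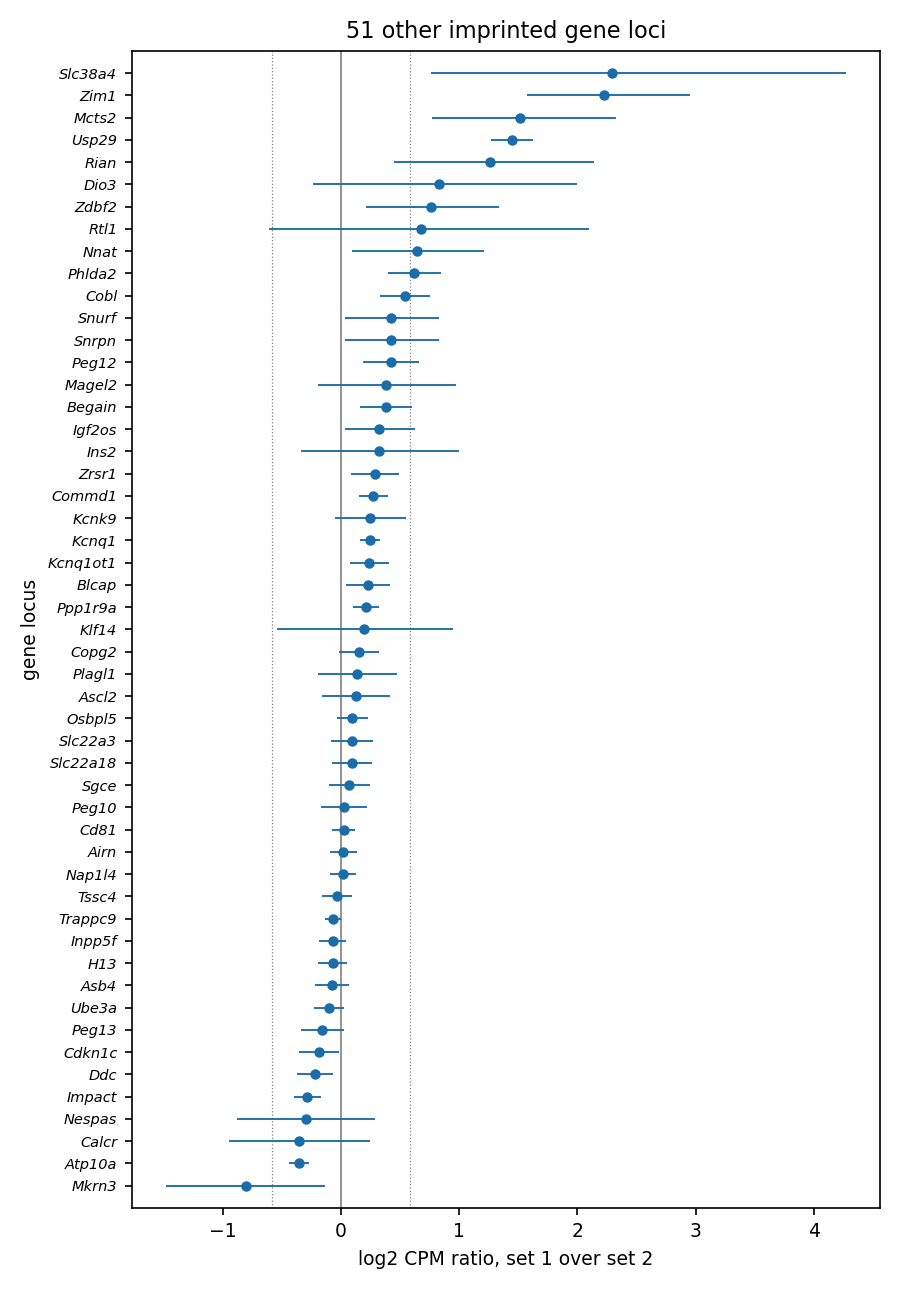
Log2 CPM ratio of set 1 over set 2 at the loci of 51 other imprinted genes with at least 20 counts. Points are ratios, bars are exact 95% intervals and dotted lines mark 1.5-fold. The ratios run from -0.80 at Mkrn3 to 2.29 at Slc38a4, 10 of them beyond the line on the set 1 side and 1 beyond the line on the set 2 side.

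Genes that act on or with the imprinted genes were counted in the same way. The background was again 8.78% of gene loci higher and 7.46% lower in set 1, or 5.56% and 4.33% of protein-coding loci. The shares higher in set 1 among insulin and IGF, Gs alpha and cAMP, and quiescence genes were near this background. None of 22 genes for the maintenance and reading of imprints passed 1.5-fold (0 in each direction), including Zfp57 at a log2 ratio of -0.45, Ctcf at -0.27, Trim28 at -0.23, Dnmt1 at 0.17 and Yy1 at 0.07. Of 33 insulin and IGF signaling genes, 3 were higher in set 1, namely Igfbp2, which encodes an IGF-binding protein, at 0.85, Igf2bp1, which encodes an RNA-binding protein, at 0.74, and Grb14, an adaptor related to Grb10, at 0.62. Of 18 Gs alpha and cAMP genes, Adcy6, an adenylyl cyclase gene, was higher at 1.18. Of 24 quiescence genes, which include Ndn, 2 were higher in set 1, Ndn among them, and 2 were lower, the integrin gene Itga2 at -0.82 and the transcription factor gene Gfi1 at -0.81. The medians of the 4 lists were -0.061, -0.0076, -0.085 and 0.016.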

How the data were processed

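Single-cell ATAC-seq counts of LT-HSCs were analyzed. Per the labels' processing notes, reads were processed with Cell Ranger ATAC 1.2.0 on mm10/GRCm38, and the authors deposited counts of transposase cut sites per peak and cell barcode, with no normalization or equalization of depth stated. Of 2 such tables, the second gives its peaks no names and was not used here. Peaks were joined to GENCODE M21 genes (GRCm38). Counts were summed per barcode set (13050952 and 9820094) and scaled to CPM. A set at 0 counts was placed at 3 counts for a ratio. No cell was removed and no doublet caller was run. Shares of cells were computed after thinning to 4899 counts per cell, the 10th percentile, which left out 69 and 76 shallower cells. Intervals are exact Poisson or Clopper-Pearson (scipy 1.17.1, Python 3.11.15).

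With 1 sample per group, no test was made. Members and gene lists were chosen with earlier results of these data known. All 10 members were named, with their start peaks, their 3 highest peaks and peaks past 1.5-fold with an interval excluding 0, and from the other lists up to 4 genes per direction with at least 100 counts. The values of 1 such gene are not reported here. Ratios were tested on simulated data, where the criterion on interval coverage was pooled over the changed loci after a first version missed it in a small bin. The simulated counts were drawn from the binomial that the intervals assume, without paired cut sites. The coverage found there therefore does not carry over to the real counts.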

Additional observations from a re-analysis of the deposited data

How the results depend on the processing

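The number of member loci past 1.5-fold, 2 as reported, was 1 at a 2-fold threshold and 0 when peaks shared with another gene were left out, since this removed the only peaks of Peg3 and Ndn. In thinned cells it was again 2, but the loci were Peg3 and Dlk1. There Ndn fell to a log2 ratio of 0.40, under the fold, and Dlk1 rose to 0.77. With start peaks alone the 2 loci were Peg3 and Igf2r, since Ndn had no peak within 1000 bp of a GENCODE start. The number of member peaks past 1.5-fold, 17 as reported, was 11 with each peak counted only once in a cell and 9 at 2-fold. The Peg3 log2 ratio ranged from 1.30, with that same counting, to 1.94 in thinned cells, and the Ndn ratio from 0.40 to 1.15. The Igf2r ratio was 1.12 from its start peak alone, against -0.10 over the locus, and the Gnas ratio was -0.011 in thinned cells. The Mest ratio, near 0, changed sign in 3 alternatives. Scaling by the median of ratios shifted all values by -0.0086. The alternative without the 10 cells of each set with most counts at a locus was chosen after seeing the data. At every locus with at least 20 counts it took a larger share of the counts from set 2, which raises the ratio by itself. At 9798 counts per cell, set 2 had the higher share at H19 (5.42% and 5.92%), Dlk1 (4.70% and 5.69%) and Mest (7.78% and 8.53%). No paired analysis was possible because each group had 1 sample, and for the same reason no replicate could be left out. Meg3 had 9 counts over 90 peak bases, under the minimum of 20 counts.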
